A study of Mus musculus with 12 samples.

Results

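Transcripts of 9 transcription factor genes were followed in macrophages with and without RasGEF1b and with and without lipopolysaccharide (LPS). The genes were the C/EBP family members *Cebpa*, *Cebpb*, *Cebpd*, *Cebpe* and *Cebpg*, and the lineage factors *Spi1*, *Runx1*, *Maf* and *Mef2c*. They were taken by symbol from a table of 55487 gene models, in which all 9 are present. The cells were bone-marrow-derived macrophages (BMDMs) that had been grown with L929 cell-conditioned medium from C57BL/6 mice aged 8 to 12 weeks. KO macrophages came from Rasgef1b-fl/fl;CMVcre mice, in which a cytomegalovirus promoter drives Cre and the deletion is in all tissues, germ cells included. WT macrophages came from wild-type C57BL/6 mice that the animal facility provided, so KO and WT animals were not stated to be littermates. LPS-treated cells received 100 ng/ml of Escherichia coli LPS for 4 h, and untreated cells received none. Each of the 4 groups (LPS-treated KO, untreated KO, LPS-treated WT and untreated WT) had 3 libraries of poly(A) RNA, which the labels call biological replicates.

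C/EBP proteins are basic leucine zipper (bZIP) factors that bind DNA as dimers, with each other or with other bZIP proteins. C/EBPα is known for driving myeloid progenitors towards monocytes and granulocytes and for slowing the cell cycle, C/EBPβ and C/EBPδ for the inflammatory program of macrophages, C/EBPε for the late steps of granulocyte maturation, and C/EBPγ, which lacks a strong activation domain, for its dimers with other family members and ATF4. PU.1, the ETS factor encoded by *Spi1*, opens macrophage enhancers and is needed for the myeloid lineage. RUNX1 acts with PU.1 in hematopoietic progenitors, MEF2C is a MADS-box factor of lymphoid and monocytic development, and c-MAF, a large MAF bZIP factor, is known in macrophages for *Il10* expression and for restraining self-renewal.

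The libraries held 19316691 to 24977356 reads in genes, and each read counted for 1.21 to 1.41 normalized counts in LPS-treated and 0.660 to 0.855 in untreated libraries. *Rasgef1b* itself had 3618 to 4192 normalized counts in LPS-treated KO libraries, against 11844 to 12554 in LPS-treated WT libraries. Without LPS it had 545 to 695 normalized counts in KO libraries, against 2001 to 2171 in WT libraries. The deletion removes only a part of the gene, and whether the remaining reads lie outside that part was not tested. The genotype labels held in every library. All 8 macrophage markers were expressed. After LPS they summed to 273170 to 339137 normalized counts in KO and 339103 to 392543 in WT libraries. In untreated cells the sums were 215104 to 268170 in KO and 261612 to 323497 in WT libraries. Among them *Lyz2* averaged 157945 in LPS-treated KO, 146219 in untreated KO, 196491 in LPS-treated WT and 187439 in untreated WT libraries. Of other cells, 5 of 9 neutrophil markers had a mean of at least 10, with sums of 424 to 1252 in LPS-treated KO, 280 to 612 in untreated KO, 325 to 721 in LPS-treated WT and 265 to 628 in untreated WT libraries, and *Ly6g*, *Mpo*, *Elane* and *Retnlg* were below that mean. The T cell sum rested on *Lck* and *Cd4*, at 774 to 1191 in LPS-treated KO, 111 to 143 in untreated KO, 1175 to 1521 in LPS-treated WT and 171 to 249 in untreated WT libraries, and its defining markers *Cd3e*, *Cd3g* and *Cd8a* were at or near 0. The 6 dendritic cell markers summed to 95.3 to 132 in LPS-treated KO, 11.1 to 26.1 in untreated KO, 78.8 to 103 in LPS-treated WT and 14.5 to 21.1 in untreated WT libraries, with *Xcr1* at a mean of 68.3 and 62.8 in LPS-treated KO and WT and 2.80 and 4.19 in untreated KO and WT libraries, and *Flt3* at a mean of 0.910 to 1.71. The B cell, mast cell and basophil, erythroid and stromal sums were at most 54.4 in any library. The part of these cells in the results below was not tested. Replicate 2 of untreated KO macrophages had 5.06% of its reads in the ribosomal RNA model CT010467.1, against 0.0398% to 0.0874% in the other 11 libraries. In bulk RNA, fewer cells of a type and less RNA per cell cannot be told apart.

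Per kilobase of annotated exon, *Spi1* was the most abundant of the 9 mRNAs in every group, at 5985 ± 247 in LPS-treated KO, 1991 ± 19.1 in untreated KO, 5479 ± 640 in LPS-treated WT and 2029 ± 52.5 in untreated WT macrophages (normalized counts per kb, SD, n = 3). *Cebpe* was the least abundant in every group, at 4.54 to 12.3 per kb over the 12 libraries. Between these ends the order differed between LPS-treated and untreated cells. After LPS the order in both genotypes was *Spi1*, *Cebpb*, *Cebpd*, *Maf*, *Runx1*, *Cebpg*, *Mef2c*, *Cebpa* and *Cebpe*. In untreated cells of both genotypes it was *Spi1*, *Cebpa*, *Maf*, *Cebpb*, *Cebpg*, *Mef2c*, *Runx1*, *Cebpd* and *Cebpe*. Neighbours whose libraries overlapped were *Runx1* and *Cebpg* after LPS in both genotypes, *Cebpd* and *Maf* after LPS in WT, and *Cebpa* and *Maf* in untreated cells of both genotypes. The order also depends on the annotation, because the exons of all transcripts of a gene were merged. These came to 15715 nt over 31 transcripts for *Mef2c*, 12025 nt over 7 for *Runx1* and 5621 nt over 4 for *Cebpg*. Other lengths were not tried for these genes. The GENCODE model of *Cebpd* is 3746 nt long and the RefSeq gene 2260 nt. With the RefSeq length, which was added after the values had been seen, *Cebpd* stood at 2087 ± 152 per kb in LPS-treated KO and 1975 ± 493 in LPS-treated WT macrophages, and in WT its highest library (2532) reached above the lowest of *Cebpb* (2347).

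**Figure D1:**
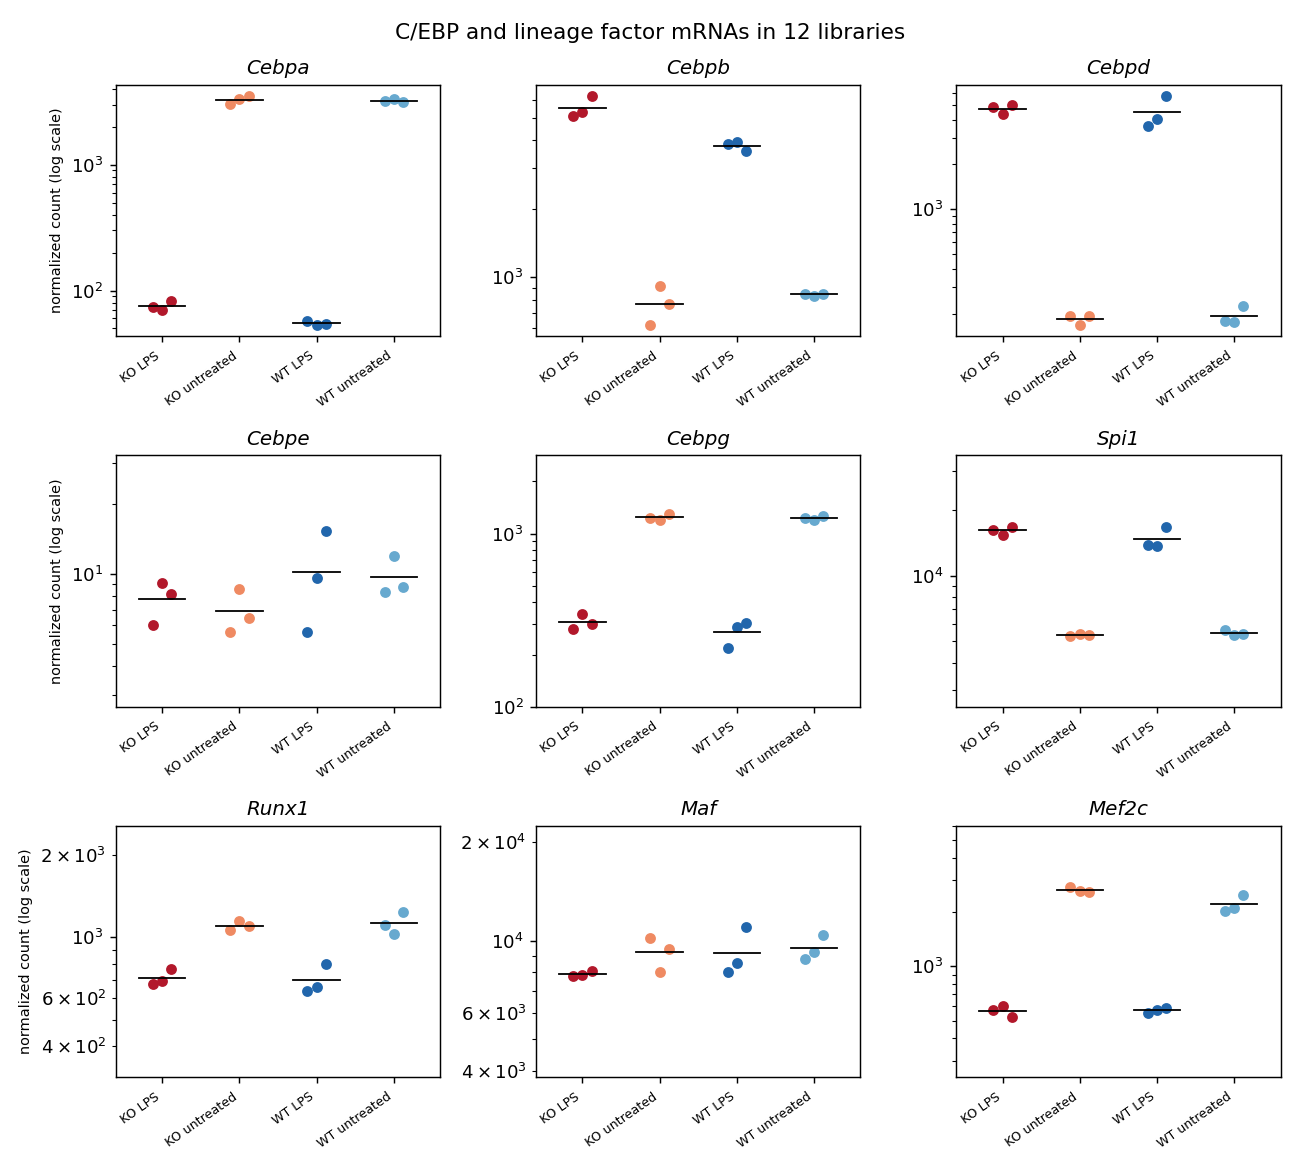
Normalized counts of the 9 genes in 12 libraries, each panel with its own logarithmic axis. Points are libraries and black lines are means of 3. *Cebpa*, *Cebpg* and *Mef2c* sit lower in LPS-treated than in untreated libraries, *Cebpb*, *Cebpd* and *Spi1* sit higher, and *Cebpe* stays between 5.63 and 15.3.

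The promoters of the called genes that RefSeq (GRCm38.p6) lists are given because they are the regulatory sequence next to the largest changes below. Of the 9 genes, 5 matched the promoter table (*Cebpa*, *Cebpb*, *Cebpg*, *Runx1* and *Mef2c*), and *Cebpd*, *Cebpe*, *Spi1* and *Maf* did not. The 250 bases before each start site were searched on both strands for C/EBP (TTGCNNAA), NF-κB (GGGA and CC with 4 bases between), PU.1 (GAGGAA), RUNX (TGTGGT), CRE (TGACGTCA) and IRF (GAAA and GAAA with 2 bases between) letters, and matches are in capitals. The windows are chr7:35119043-35119292 (plus strand) for *Cebpa*, chr2:167688665-167688914 (plus) for *Cebpb*, chr7:35056567-35056816 (minus) for *Cebpg* and chr13:83503784-83504033 (plus) for the most upstream start site of *Mef2c*.
Cebpa: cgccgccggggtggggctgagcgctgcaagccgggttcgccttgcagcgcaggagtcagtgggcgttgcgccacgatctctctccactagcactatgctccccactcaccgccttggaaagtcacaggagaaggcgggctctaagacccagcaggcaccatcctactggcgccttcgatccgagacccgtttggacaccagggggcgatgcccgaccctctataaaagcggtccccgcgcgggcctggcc
Cebpb: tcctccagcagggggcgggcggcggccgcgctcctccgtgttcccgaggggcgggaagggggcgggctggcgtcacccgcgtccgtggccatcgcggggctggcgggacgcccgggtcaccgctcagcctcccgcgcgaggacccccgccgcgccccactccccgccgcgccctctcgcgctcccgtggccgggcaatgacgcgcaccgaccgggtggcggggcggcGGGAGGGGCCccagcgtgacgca
Cebpg: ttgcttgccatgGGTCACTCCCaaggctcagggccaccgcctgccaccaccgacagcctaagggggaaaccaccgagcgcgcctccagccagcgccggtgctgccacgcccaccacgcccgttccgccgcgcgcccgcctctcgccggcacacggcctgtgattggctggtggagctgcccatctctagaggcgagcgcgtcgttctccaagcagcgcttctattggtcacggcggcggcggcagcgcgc
Mef2c: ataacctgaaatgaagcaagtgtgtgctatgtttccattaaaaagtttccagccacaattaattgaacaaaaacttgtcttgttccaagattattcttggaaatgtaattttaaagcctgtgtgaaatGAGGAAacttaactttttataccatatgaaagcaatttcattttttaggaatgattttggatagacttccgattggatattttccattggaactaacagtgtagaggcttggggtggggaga
The *Cebpb* window held NF-κB letters that begin 23 bases before the start site, and the *Cebpg* window held them on the other strand, 238 bases before it. The *Mef2c* window held PU.1 letters 122 bases before the start. Of the other 2 *Mef2c* start sites, 1 had PU.1 letters at -186 and 1 had NF-κB letters at -170, and the second *Runx1* start site had PU.1 letters at -46. The *Cebpa* window held none of the 6 patterns, nor did that of the upstream *Runx1* start site, and no match overlapped another. Of 32851 mouse windows of this length, 17.6% held the NF-κB letters and 23.3% the PU.1 letters, against 9.56% for C/EBP, 14.05% for RUNX, 1.55% for CRE and 2.98% for IRF. The GC content of the printed windows was 66.4% for *Cebpa*, 81.6% for *Cebpb*, 70.8% for *Cebpg* and 33.6% for *Mef2c*.

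To see how LPS acts on these factors in each genotype, LPS-treated cells were compared with untreated cells. *Cebpb*, *Cebpd* and *Spi1* rose and *Cebpa*, *Cebpg* and *Mef2c* fell, in KO and in WT macrophages. A call needed a limma adjusted p under 0.05 and a change of at least 2-fold. Of the 8 members with a mean of at least 10 normalized counts, 3 rose in each genotype, against 17.3% of 12732 genes tested in KO and 17.1% of 12656 in WT macrophages. Another 3 fell in each genotype, against 16.6% of genes in KO and 16.9% in WT macrophages. At the adjusted p alone, 7 of the 8 members passed in each genotype, and so did 72.1% of genes in KO and 73.2% in WT macrophages. Over all genes 2201 rose and 2108 fell in KO, and 2158 rose and 2136 fell in WT macrophages. Upper quartile scaling turned these splits into 1792 and 3062 in KO, and 1714 and 3088 in WT macrophages, and shifted the median of all genes to -0.34 and -0.35 on the log2 scale, against -0.01 and -0.02 as deposited. Relative to the median the members moved by at most 0.004 under that scaling, with for example *Cebpb* at 2.87 in KO and 2.18 in WT macrophages.

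*Cebpa* fell the furthest of the members. It is an intronless gene on the plus strand of chromosome 7 (chr7:35119293-35121928, GRCm38). Its libraries had 73.8, 70.6 and 83.0 normalized counts in LPS-treated KO macrophages, against 3051, 3295 and 3483 in untreated KO macrophages. They had 57.7, 53.2 and 54.3 in LPS-treated WT macrophages, against 3199.8, 3308 and 3155 in untreated WT macrophages. All LPS-treated libraries were far below all untreated ones. The log2 change was -5.42 in KO (SE 0.0889, 95% interval -5.62 to -5.21, limma adjusted p = 9.64e-10) and -5.85 in WT macrophages (SE 0.0730, interval -6.01 to -5.68, adjusted p = 5.04e-11). *Cebpa* ranked 25 by p among the genes tested in KO and 10 in WT macrophages. After LPS it rested on 54 to 61 reads per library in KO and 39 to 41 in WT macrophages.

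*Cebpd* rose the most. The gene lies at chr16:15887286-15891031 on the plus strand and has no intron. It had 4821, 4333 and 4998 normalized counts in LPS-treated KO macrophages, against 192, 168 and 191 in untreated KO macrophages. It had 3606, 4064 and 5722 in LPS-treated WT macrophages, against 179, 176 and 224 in untreated WT macrophages. The lowest LPS-treated library was thus still far above the highest untreated one, although the WT libraries spread more after LPS than the KO libraries. The log2 change was 4.68 in KO (SE 0.0829, 95% interval 4.49 to 4.87, limma adjusted p = 1.34e-09) and 4.50 in WT macrophages (SE 0.162, interval 4.14 to 4.87, adjusted p = 1.22e-08).

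*Cebpb*, also intronless, lies at chr2:167688915-167690418 on the plus strand. It had 5075, 5318 and 6200 normalized counts in LPS-treated KO macrophages, against 619, 917 and 763 in untreated KO macrophages. It had 3848, 3907 and 3563 in LPS-treated WT macrophages, against 845, 831 and 848 in untreated WT macrophages. It rose in both genotypes without overlap. The log2 change was 2.86 in KO (SE 0.138, 95% interval 2.55 to 3.18, limma adjusted p = 2.32e-07) and 2.16 in WT macrophages (SE 0.0557, interval 2.04 to 2.29, adjusted p = 1.64e-09).

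*Cebpg* is a neighbour of *Cebpa* on chromosome 7 (chr7:35046422-35056573, minus strand) and fell with it. It had 279, 344 and 299 normalized counts in LPS-treated KO macrophages, against 1230.2, 1199.8 and 1292 in untreated KO macrophages. It had 218, 291 and 305 in LPS-treated WT macrophages, against 1223, 1194 and 1264 in untreated WT macrophages. The groups were apart by a wide margin, with log2 changes of -2.01 in KO (SE 0.0887, limma adjusted p = 1.37e-07) and -2.19 in WT macrophages (SE 0.119, adjusted p = 1.90e-07). *Cebpe* (chr14:54710360-54712174, minus strand) had 5.63 to 15.3 normalized counts over the 12 libraries, or 4 to 18 reads per library, and did not reach the mean of 10. Fitted without that minimum, its log2 change after LPS was 0.16 in KO (95% interval -0.86 to 1.18, limma adjusted p = 0.816) and -0.01 in WT macrophages (interval -1.01 to 0.99, adjusted p = 0.987), so that a change was not detectable at this depth.

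**Figure D2:**
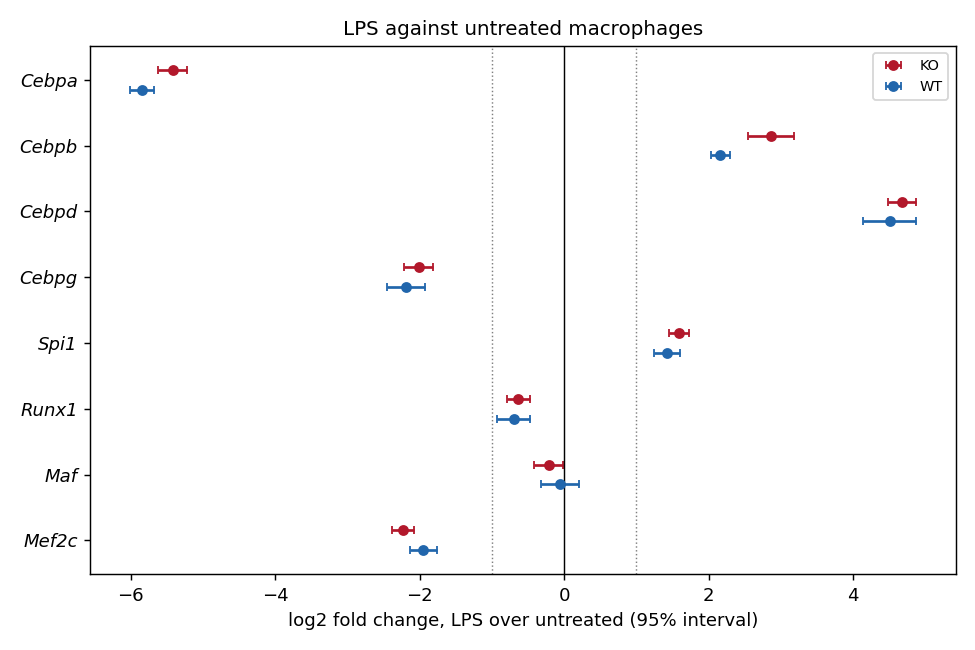
Log2 fold change of the 8 tested members, LPS over untreated, in KO (upper point of each pair) and WT macrophages (lower point), with 95% intervals from limma; dotted lines mark 2-fold. *Cebpa* lies at -5.42 and -5.85, *Cebpd* at 4.68 and 4.50, and *Maf* near 0.

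The 5 C/EBP mRNAs thus changed places. Per kilobase, *Cebpa* held 0.572% ± 0.0158 of their sum in LPS-treated KO, against 61.4% ± 2.20 in untreated KO macrophages. It held 0.555% ± 0.0494 in LPS-treated WT, against 59.3% ± 1.06 in untreated WT macrophages (SD, n = 3). *Cebpb* held 73.1% ± 1.72 in LPS-treated KO, against 25.0% ± 3.31 in untreated KO, and 66.6% ± 6.30 in LPS-treated WT, against 27.2% ± 0.490 in untreated WT macrophages. *Cebpd* went the same way as *Cebpb*, with 25.1% ± 1.75 in LPS-treated KO, against 2.43% ± 0.337 in untreated KO, and 31.3% ± 6.15 in LPS-treated WT, against 2.50% ± 0.354 in untreated WT macrophages. *Cebpg* held 1.10% ± 0.164 in LPS-treated KO, against 10.9% ± 0.915 in untreated KO, and 1.27% ± 0.165 in LPS-treated WT, against 10.6% ± 0.364 in untreated WT macrophages. Its share depends on its merged exon length, for which no other value was tried. With the RefSeq length of *Cebpd*, its share was 35.9% ± 2.13 in LPS-treated KO, against 3.98% ± 0.541 in untreated KO, and 43.1% ± 6.90 in LPS-treated WT, against 4.09% ± 0.569 in untreated WT macrophages. The sum with GENCODE lengths was 5027 ± 452 per kb in LPS-treated KO, against 2027 ± 160 in untreated KO, and 3777 ± 199 in LPS-treated WT, against 2059 ± 15.5 in untreated WT macrophages.

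Within a library the ratio of *Cebpb* to *Cebpa* does not depend on the size factor. Per kilobase it was 121, 132 and 131 in LPS-treated KO, against 0.355, 0.488 and 0.384 in untreated KO macrophages. It was 117, 129 and 115 in LPS-treated WT, against 0.463, 0.440 and 0.471 in untreated WT macrophages. *Cebpa* was therefore the more abundant of the pair in all 6 untreated libraries and *Cebpb* in all 6 LPS-treated ones. The log2 ratio was higher by 8.30 after LPS in KO (SE 0.144) and by 8.03 in WT macrophages (SE 0.0582), each with an exact two-sided permutation p = 0.1, the smallest that 3 against 3 libraries can give. Between the genotypes the log2 ratio differed by 0.09 after LPS (KO minus WT, exact permutation p = 0.2) and by -0.18 in untreated cells (exact permutation p = 0.4), with overlapping libraries in both cases.

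**Figure D3:**
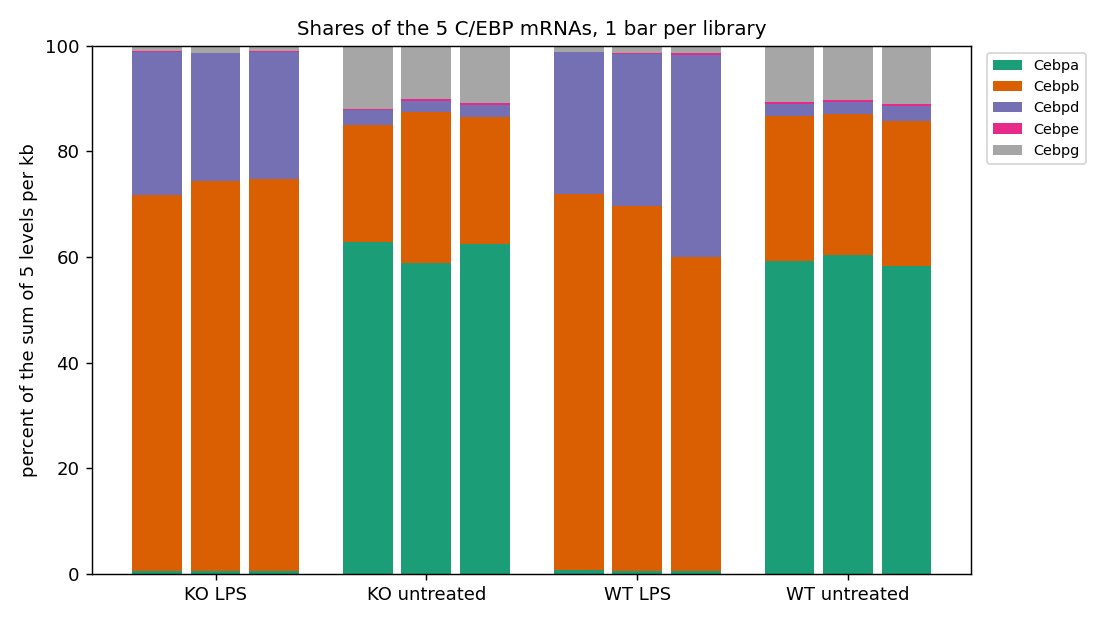
Shares of the 5 C/EBP mRNAs in the sum of their normalized counts per kb of GENCODE exon, 1 bar per library. *Cebpa* fills 58.3% to 62.8% of the untreated bars and 0.517% to 0.610% of the LPS bars, where *Cebpb* fills 59.5% to 74.3%.

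Among the other lineage factors, *Spi1* rose and *Mef2c* fell. *Spi1* (chr2:91082390-91115756, plus strand) had 16257, 15408 and 16721 normalized counts in LPS-treated KO macrophages, against 5308, 5409.7 and 5375 in untreated KO macrophages. It had 13864, 13679 and 16754 in LPS-treated WT macrophages, against 5629, 5366 and 5409 in untreated WT macrophages. The groups did not overlap, and the log2 change was 1.59 in KO (SE 0.0611, limma adjusted p = 6.20e-08) and 1.43 in WT macrophages (SE 0.0794, adjusted p = 2.29e-07). Under quantile normalization *Spi1* stayed below the 2-fold threshold, at 0.62 in KO and 0.46 in WT macrophages.

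*Mef2c* (chr13:83504034-83667080, plus strand) had 569.7, 599 and 525 normalized counts in LPS-treated KO macrophages, against 2769, 2613 and 2573 in untreated KO macrophages. It had 547, 572 and 588 in LPS-treated WT macrophages, against 2032, 2111 and 2496 in untreated WT macrophages. LPS-treated libraries were below untreated ones throughout, with log2 changes of -2.23 in KO (SE 0.0691, limma adjusted p = 1.91e-08) and -1.95 in WT macrophages (SE 0.0825, adjusted p = 3.56e-08).

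*Runx1* (chr16:92601466-92826149, minus strand) fell by less. Its 3 LPS-treated KO libraries had 673 to 766 normalized counts, against 1062 to 1148 in untreated KO libraries, and LPS-treated WT libraries had 635 to 797, against 1032 to 1238 in untreated WT libraries. The log2 change was -0.63 in KO (SE 0.0721, limma adjusted p = 5.59e-05) and -0.70 in WT macrophages (SE 0.101, adjusted p = 0.000179), past the adjusted p but not the 2-fold threshold, which upper quartile scaling let it pass in WT macrophages at -1.04.

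*Maf* (chr8:115682942-115707794, minus strand) had 7788 to 8085 normalized counts in LPS-treated KO macrophages, against 8041 to 10152 in untreated KO cells. It had 8005 to 10994 in LPS-treated WT macrophages, against 8780.0 to 10379.9 in untreated WT macrophages. The groups overlapped in both genotypes. Its log2 change was -0.21 in KO (95% interval -0.42 to -0.01, limma adjusted p = 0.0571) and -0.06 in WT macrophages (interval -0.32 to 0.20, adjusted p = 0.678). Quantile normalization moved it to -1.18 in KO and -1.05 in WT macrophages, both then past the thresholds.

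To see whether the loss of RasGEF1b shifts these factors at rest, untreated KO macrophages were compared with untreated WT macrophages. None of the 8 members tested passed either rule, where 0.193% of 12461 genes passed both thresholds and 0.538% the adjusted p alone. At an unadjusted p under 0.05, 1 member (*Mef2c*) and 1345 of the 12461 genes passed in limma, and edgeR and DESeq2 on the recovered reads called 0 members. *Mef2c* was the 1 member whose libraries did not overlap, with 2769, 2613 and 2573 normalized counts in KO, against 2032, 2111 and 2496 in WT macrophages, where 8.41% of genes were higher in KO without overlap and 7.98% lower. Its log2 difference was 0.27 (SE 0.0796, 95% interval 0.08 to 0.45, limma adjusted p = 0.240). For the other 7 members the difference lay between -0.15 (*Cebpb*, interval -0.44 to 0.13) and 0.02 (*Cebpa*, interval -0.11 to 0.16), and the 95% intervals of all 8 stayed within 2-fold in either direction.

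After LPS, *Cebpb* was higher in KO than in WT macrophages. Its 3 KO libraries (5075, 5318 and 6200 normalized counts) were all above the 3 WT libraries (3848, 3907 and 3563). The log2 difference was 0.55 (SE 0.0825, 95% interval 0.36 to 0.73, a fold of 1.46), with a limma adjusted p = 0.0183. It thus passed the adjusted p, as 0.816% of 12504 genes did, but not the 2-fold threshold, which 0.232% of genes and 0 members passed. edgeR gave an adjusted p = 0.0196 and DESeq2 an adjusted p = 5.76e-06 on the recovered reads, neither with a 2-fold change. The adjusted p was 0.0736 without replicate 3 of the KO libraries, 0.0730 without replicate 1 and 0.0813 without replicate 2 of the WT libraries, and 0.196 without a variance trend, and stayed under 0.05 in the other 14 of 18 refits. The summed neutrophil markers were 424 to 1252 in these KO libraries and 325 to 721 in the WT libraries. The summed macrophage markers were 273170 to 339137 in the KO and 339103 to 392543 in the WT libraries. The part of either cell type in the *Cebpb* difference was not tested.

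*Cebpa* lay the same way after LPS, at 73.8, 70.6 and 83.0 normalized counts in KO, against 57.7, 53.2 and 54.3 in WT macrophages. The libraries did not overlap, but on these few reads the log2 difference of 0.45 (SE 0.170, 95% interval 0.07 to 0.83) had a limma adjusted p = 0.375. A fit with all 12 libraries sharing 1 variance gave an adjusted p = 0.0162 and was the 1 of 18 refits under 0.05. Of the 8 members, 2 were thus higher in KO without overlap and 0 lower, against 8.35% and 7.73% of all genes, and 2 members and 1324 of 12504 genes had an unadjusted p under 0.05. The other 6 members ranged from -0.20 (*Maf*, 95% interval -0.43 to 0.03) to 0.19 (*Cebpg*, interval -0.12 to 0.50), and *Cebpd*, at 0.11 (interval -0.21 to 0.42), did not follow *Cebpb*.

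**Figure D4:**
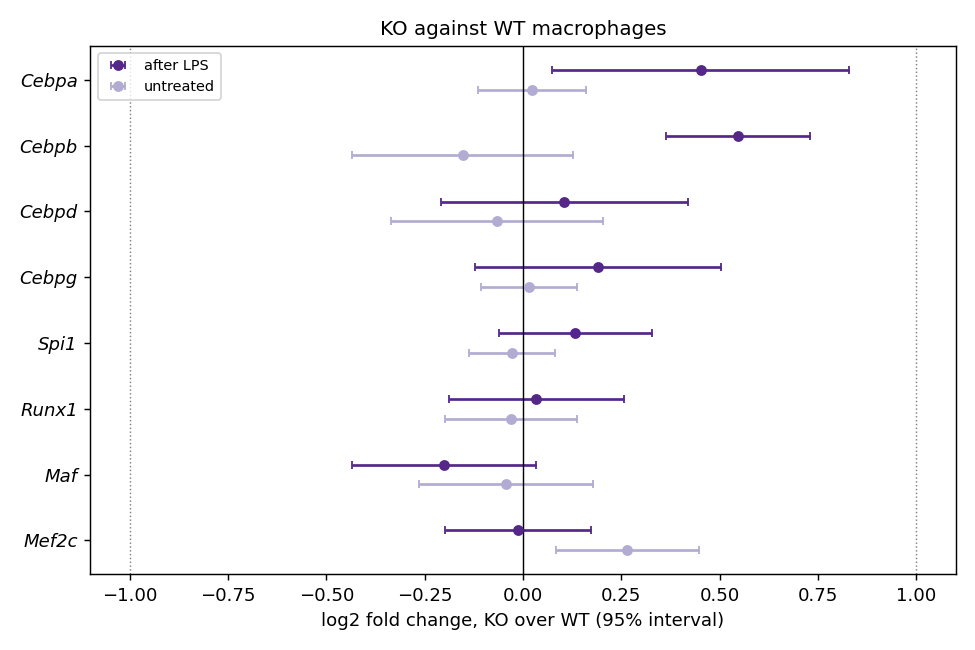
Log2 fold change of the 8 tested members, KO over WT, after LPS (upper point of each pair) and in untreated cells (lower point), with 95% intervals from limma; dotted lines mark 2-fold. After LPS *Cebpb* (0.55) and *Cebpa* (0.45) lie above 0 with their intervals, and in untreated cells *Mef2c* (0.27) does.

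Whether LPS acts differently in the genotypes was tested by the interaction over 12 libraries. It was called for 0 members and for 0.00787% of 12711 genes, that is 1 gene, or 6 genes in a fit with a replicate block. At an unadjusted p under 0.05, 3 members (*Cebpa*, *Cebpb* and *Mef2c*) and 537 of the 12711 genes passed in limma. *Cebpb* had the smallest p of the members. Between libraries of the same number its log2 change after LPS was 3.03, 2.54 and 3.02 in KO, against 2.19, 2.23 and 2.07 in WT macrophages. All 3 KO pairs thus exceeded all 3 WT pairs, but the share of all genes whose pairs separate in this way was not counted. The interaction of *Cebpb* was 0.70 on the log2 scale (SE 0.161, 95% interval 0.35 to 1.05, limma adjusted p = 0.491) and was not called. Its adjusted p was 0.114 with the replicate block in limma and 0.543 with edgeR. DESeq2 on the recovered reads called it (0.69, adjusted p = 0.0374) among 23 genes. *Cebpa* had an interaction of 0.43 (SE 0.110, adjusted p = 0.651), which stands for the smaller fall in KO, at -5.35, -5.52 and -5.37 in the 3 KO pairs, against -5.77, -5.93 and -5.84 in the 3 WT pairs. *Mef2c* had -0.28 (SE 0.110, adjusted p = 0.999), with falls of -2.28, -2.12 and -2.29 in KO, against -1.89, -1.88 and -2.08 in WT macrophages. The difference of each between the genotypes was not called by limma.

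Several of these genes overlap other gene models in the GENCODE annotation, and since the strand of the library kit is not given in the sources used here, reads in the overlap cannot be told apart. *Cebpb* shares 312 exonic nt with *Tmem189* on the other strand, which averaged 1274 normalized counts in LPS-treated KO, against 3402 in untreated KO, and 1320 in LPS-treated WT, against 3452 in untreated WT macrophages, the opposite direction to *Cebpb*. *Cebpd* shares 562 nt with *Spidr*, which averaged 278 in LPS-treated KO, 277 in untreated KO, 298 in LPS-treated WT and 272 in untreated WT macrophages. The antisense models *Gm45091* at *Cebpa* (51 nt), *Gm26626* at *Runx1* (106 nt) and *Gm45095* at *Cebpg* (4 nt) held 48, 49 and 15 reads over the 12 libraries, and *Gm15655* at *Maf* held 0. *Gm44836* (73 nt) and *Gm45094*, on the strand of *Cebpg*, held 73 and 93 reads.

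Over the 12 libraries the profiles most like those of the members, by Pearson's r of log2(normalized count + 1) against 12711 genes, followed mainly the contrast of LPS with untreated cells that all 12 points share. *Cebpa* was nearest to *Mnt* (r = 0.999), *Tpra1* and *Cd300lb*, and *Cebpd* to *Irak2* (0.999), *Zfp36* and *Pim1*. *Cebpb* was nearest to *Manbal* (0.996), *Cnep1r1* and *Ccl9*, and *Spi1* to *Cyria* (0.999), *Nub1* and *Tnip1*. *Mef2c* was nearest to the ETS factor gene *Fli1* (0.997), *Bin2* and *Pik3cg*, *Cebpg* to *Soga1* (0.998), *Vav2* and *1700017B05Rik*, and *Runx1* to *Tbc1d17* (0.987), *Ptpn21* and *Klhl24*. The genes with little change had looser neighbours, with *Arih2* (0.921), *Gatad2b* and *4930557K07Rik* for *Maf* and *Them4* (0.849), *Dcaf10* and *Ube2g1* for *Cebpe*. As *Cebpe* had 4 to 18 reads per library, its neighbours carry little information. Whether such values exceed the highest r that 12711 unrelated genes would give was not tested.

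Around these members stood 5 lists of related genes. Of 22 other myeloid and macrophage lineage factors, 18 were tested in KO and 17 in WT macrophages. After LPS 5 rose and 8 fell in KO and 5 rose and 7 fell in WT macrophages, where 17.3% of all genes rose and 16.6% fell in KO and 17.1% and 16.9% in WT macrophages. The list had a median log2 change of -0.23 in KO and 0.25 in WT macrophages, against -0.01 and -0.02 over all genes. These medians do not cover the same genes, as *Runx3* (-0.87 in KO, limma adjusted p = 0.133) was tested in KO only. The KO median lay between *Runx3* and *Cbfb* (0.41), and the WT median was the value of *Klf4*. Each of the 17 genes tested in WT had a log2 change of the same sign in KO. The opposite signs of the medians are thus not opposite responses. *Ikzf1*, which encodes the zinc finger factor Ikaros, rose by 3.87 in KO and 3.93 in WT macrophages, and *Irf8*, a partner of PU.1, by 3.46 and 3.49. *Gfi1*, which encodes a transcriptional repressor, was called as well. It had 50 reads in LPS-treated KO, against 4 in untreated KO libraries, and 63 in LPS-treated WT, against 2 in untreated WT libraries. *Gfi1* reached the minimum mean only through its LPS-treated groups, as its untreated means were 0.990 in KO and 0.531 in WT macrophages. It could therefore only be called higher. *Fli1* fell, with log2 changes of -3.12 in KO and -2.97 in WT macrophages, as did *Bhlhe40* (-3.00 and -3.51).

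Of 18 bZIP partners and regulators of C/EBP proteins, 16 were tested. In each genotype 5 rose and 6 fell after LPS, against the same 16.6% to 17.3% of all genes each way, with a median of 0.15 in KO and 0.03 in WT macrophages, against -0.01 and -0.02 over all genes. *Batf*, an AP-1 family factor, rose by 4.73 in KO and 4.83 in WT macrophages, *Nfil3*, a bZIP repressor, by 2.93 and 3.05, and *Crem*, a relative of CREB, by 1.25 and 1.36. Under upper quartile scaling or quantile normalization 3 of the list rose in each genotype, always with *Batf* and *Nfil3* among them, and *Crem* in KO macrophages stood at 0.92 under the first of these, below 2-fold. The PAR bZIP genes of circadian output *Dbp* (-3.76 in KO and -3.76 in WT macrophages on the log2 scale) and *Tef* (-2.80 and -2.86) fell. So did *Trib3*, a pseudokinase gene of the Tribbles family, at -1.83 in KO and -2.92 in WT macrophages.

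Of 16 inflammatory genes known as targets of C/EBPβ and C/EBPδ, 14 were tested after LPS in each genotype, but not the same 14. *Ptx3* reached the minimum mean in KO only, through its LPS-treated group (30.7 normalized counts, against 0.570 in untreated KO macrophages). *Arg1* reached it in WT only (12.9 in LPS-treated and 13.3 in untreated WT macrophages) and was not called. Of the genes tested, 14 rose in KO and 12 in WT macrophages, with none lower, where 17.3% and 17.1% of all genes rose. *Il6*, *Il12b*, *Serpinb2* and *Hp* also reached the minimum only through their LPS-treated groups. Their untreated means were 3.37, 1.66, 2.52 and 9.24 in KO and 1.73, 1.17, 5.95 and 8.33 in WT macrophages. A gene under 10 in untreated cells could only be called higher, so these counts and the medians partly follow from the filter. The median log2 change was 6.50 in KO and 6.47 in WT macrophages, against -0.01 and -0.02 over all genes. *Nos2*, the inducible nitric oxide synthase, averaged 31970 ± 1877 normalized counts in LPS-treated KO, against 21.3 ± 1.12 in untreated KO, and 43317 ± 9367 in LPS-treated WT, against 14.1 ± 2.28 in untreated WT macrophages. *Ptgs2*, the inducible cyclooxygenase, averaged 29911 ± 4682 in LPS-treated KO, against 28.5 ± 3.59 in untreated KO, and 31661 ± 5488 in LPS-treated WT, against 23.4 ± 2.91 in untreated WT macrophages. *Il12b*, the p40 chain of IL-12, averaged 1548 ± 414 in LPS-treated KO, against 1.66 ± 1.47 in untreated KO, and 2974 ± 454 in LPS-treated WT, against 1.17 ± 0.322 in untreated WT macrophages (SD, n = 3). *Serpinb2*, the inhibitor PAI-2, was the 1 gene of the 5 lists called between the genotypes, at 297 ± 54.5 in LPS-treated KO, against 636 ± 83.9 in LPS-treated WT macrophages (log2 difference -1.10, SE 0.143, limma adjusted p = 0.00831). The study itself reported on *Serpinb2* in these samples, so its place in the list is not independent evidence. The call was lost with all 12 libraries in the fit (adjusted p = 0.321), without a variance trend (0.155), and without replicate 2 (log2 difference -0.97, under 2-fold) or 3 (0.0543) of the LPS-treated KO libraries or replicate 2 of the LPS-treated WT libraries (0.0595). Outside these samples, the study reported lower *Serpinb2* mRNA in KO macrophages by RT-qPCR on fresh BMDMs. Its luciferase assays in cell lines gave higher *Serpinb2* promoter activity with added RasGEF1b and lower activity with its knockdown. In the libraries used here *Serpinb2* was lower in KO macrophages after LPS, where *Cebpb* mRNA was higher by less than 2-fold. The mRNA level does not measure the activity of C/EBPβ protein.

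**Figure D5:**
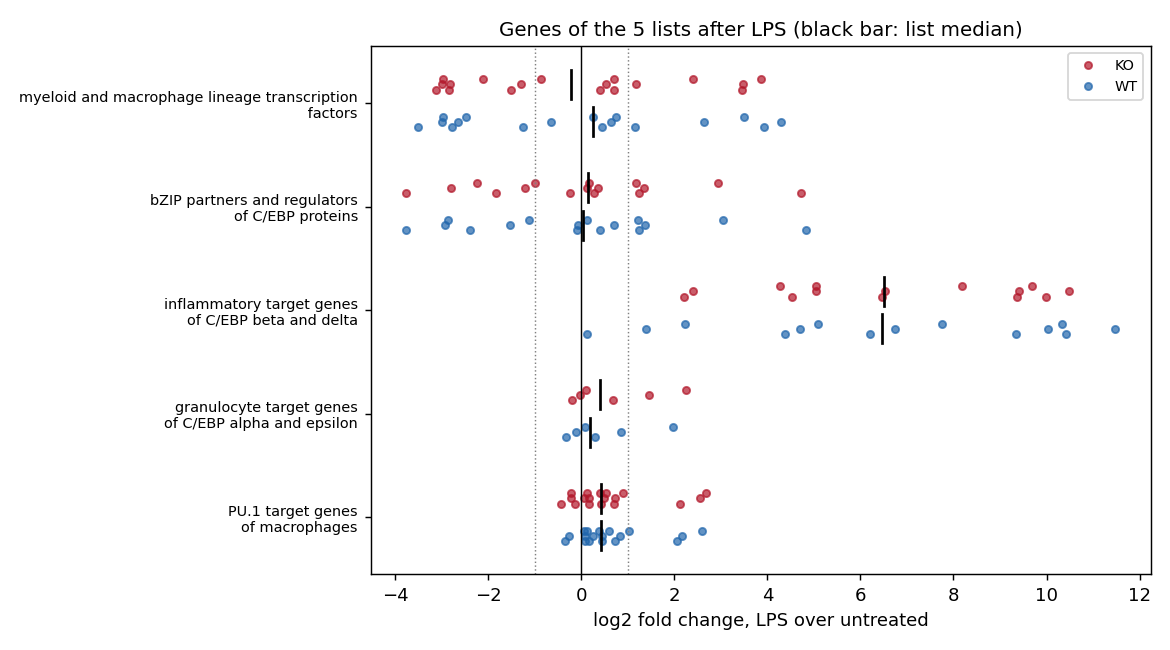
Log2 fold change, LPS over untreated, of each tested gene of the 5 lists, in KO (upper row of each pair) and WT macrophages (lower row). Black bars are list medians and dotted lines mark 2-fold; the inflammatory targets have medians of 6.50 and 6.47 and the PU.1 targets of 0.42 and 0.42.

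Of 12 granulocyte genes known as targets of C/EBPα and C/EBPε, 6 were tested after LPS and 1 rose in each genotype, with none lower, a share near the 17.3% (KO) and 17.1% (WT) of all genes that rose. It was *Csf3r*, the G-CSF receptor, which averaged 3018 ± 993 normalized counts in LPS-treated KO, against 631 ± 204 in untreated KO, and 3832 ± 977 in LPS-treated WT, against 957 ± 83.8 in untreated WT macrophages (SD, n = 3). *Camp*, the cathelicidin gene, had a log2 change of 1.45 in KO macrophages (limma adjusted p = 0.0800) and was called there as the second gene of the list once a replicate block was fitted (adjusted p = 0.0122) and with edgeR (0.0329) and DESeq2 (0.0168). Its untreated means were 5.82 in KO and 8.58 in WT macrophages, so that *Camp* too was tested only through its LPS-treated groups. The neutrophil marker list above shares *Mpo*, *Elane*, *Camp*, *Ltf* and *Ngp* with it. Of 18 macrophage genes known as PU.1 targets, all were tested, and 3 rose in KO and 4 in WT macrophages with none lower, at a median of 0.42 in each, against -0.01 and -0.02 over all genes. These shares too are near the 17.3% and 17.1% of all genes that rose. Under quantile normalization *Csf1r*, the receptor of M-CSF, was called lower in KO (-1.24) and WT macrophages (-1.27), and the mannose receptor gene *Mrc1* in KO macrophages (-1.12). The largest rises were those of the Fc receptor genes *Fcgr1* (2.69 in KO and 2.60 in WT macrophages) and *Fcgr2b* (2.55 and 2.15) and of the scavenger receptor gene *Msr1* (2.12 and 2.07). Between the genotypes the lists held no other call than *Serpinb2*, and their medians after LPS lay between -0.11 and 0.03, against a median of -0.0015 over all genes. At the adjusted p alone, 2 inflammatory genes, *Serpinb2* among them, were lower in KO after LPS. Without replicate 3 of the LPS-treated WT libraries, 2 genes of that list were called lower and 1 higher. In untreated cells the medians ranged from -0.36 (5 granulocyte genes tested) and -0.25 (10 inflammatory genes) to 0.09 (lineage factors), against -0.0095 over all genes, and none of their genes was called. *Ccl3* (-0.62, limma adjusted p = 0.0162) and *Fcgr2b* (-0.93, adjusted p = 0.0427) passed the adjusted p there without the 2-fold threshold.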

How the data were processed

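RNA of 12 BMDM libraries was sequenced, 3 for each of 4 groups set by genotype and LPS. Per the labels and the submitters' processing notes, base calls were converted with bcl2fastq (2.17), reads trimmed with Trimmomatic (0.39), aligned to GRCm38 with STAR (2.7.4a) and counted per gene with featureCounts of Subread (2.0.1). What the authors deposited is a table of 55487 gene models with a signal per library, the gene count over the size factor of that library from DESeq2 (1.32.0, R 4.1.2), neither logged nor filtered. Taking the lowest non-zero value of a library as 1 read, 100% of values were whole reads (tolerance 1e-06 reads, largest deviation 1.22e-09), so that the counts could be recovered.

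Depth is given as recovered reads. Levels per kb used the merged exons of GENCODE M21. log2(normalized count + 1) was fitted with limma (3.58.1, R 4.3.3) with a trended variance, on the 2 groups compared or, for the interaction, on all 12 libraries, for genes with a mean of at least 10, with p-values adjusted by Benjamini-Hochberg over every gene tested. SE and 95% intervals are those of the fit. The fits were also run on simulated counts that vary beyond counting error by the same setting for every gene and library. That setting is simpler than these data, and no result given here rests on it. Ratios were tested by exact permutation. Replicate pairs differed by more than counting error (chi-square per degree of freedom 4.50 to 140), and the study describes them as RNA from separate BMDM cultures, compared without pairing. The reported fits therefore have no replicate block. The labels number the replicates but do not state that LPS-treated and untreated libraries are paired. After removal of group means, libraries of the same number correlated at r = 0.167 to 0.292 in KO and 0.186 to 0.331 in WT macrophages. Within a genotype, libraries of other numbers correlated at 0.011 or less. Between the genotypes, libraries that share only a number correlated at -0.197 to 0.241, and those of other numbers at up to 0.268. Pairing is therefore not settled by these values.

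The members and lists were chosen with earlier results of these data known. Beside the members, the genes named are the 3 called genes with the largest rise and the 3 with the largest fall in each list in WT macrophages after LPS without overlap, list genes called between the genotypes, *Rasgef1b*, the 3 nearest profiles and overlapping models. A gene that this rule names is not reported here. Marker genes were named where their sums turn on them, and other list genes where a count or median turns on them. The alternatives tried were pseudocounts of 0.5 and 5, dropping the filter, raising it to a mean of 50, quantile normalization, upper quartile scaling, fits on all 12 libraries, no trend or a robust trend, the replicate block, edgeR (4.0.16) and DESeq2 (1.42.0) on recovered reads, no fold threshold and leaving out each library. Their use on the lists and list genes, and the RefSeq length for levels and shares, were chosen after seeing the data. Promoters are RefSeq sequences; proteins were not used here.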

Additional observations from a re-analysis of the deposited data

How the results depend on the processing

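Over 792 refits or other thresholds of single members, 783 kept their side of the threshold, 7 passed it newly and 2 no longer passed. The sign changed in 21 of them, none called before or after, all with a reported log2 value of at most 0.11 in size. The changed calls of *Spi1*, *Maf*, *Runx1* and *Cebpb* stand beside their values. The count of members called after LPS was 6 in KO and 6 in WT macrophages, and 6 with any library left out. It became 7 with *Runx1* without a fold threshold in both genotypes and under upper quartile scaling in WT macrophages. Between the genotypes it was 0 in untreated cells under all alternatives, and after LPS it became 1 (*Cebpb*) without a fold threshold. For the interaction it became 1 (*Cebpb*) with DESeq2. The log2 ratio of *Cebpb* to *Cebpa* ranged from 8.21 to 8.43 in KO and from 7.98 to 8.07 in WT macrophages with a library left out. The replicate block gave 6 members after LPS in each genotype and 0 for the other comparisons, and changed no other call of a member. Over all genes it gave 44 calls between untreated KO and WT cells, against 24 without it, where the numbers are not paired. In that comparison DESeq2 gave 50 calls, no filter 42, a mean of at least 50 gave 11, no variance trend 2 and the adjusted p alone 67, and leaving out 1 library gave 11 (KO replicate 2), 5 (KO replicate 3), 6 (WT replicate 1) or 4 (WT replicate 2). After LPS the 29 genes between the genotypes became 44 with DESeq2, 5 without a trend, 15 without KO replicate 3, 11 without WT replicate 2 and 102 without a fold threshold. The 1 gene of the interaction became 3 with upper quartile scaling, 23 with DESeq2, 3 without replicate 1 of either KO group and 2 without replicate 2 of untreated WT. The causes of these shifts were not tested. *Cebpa* after LPS rests on 39 to 61 reads per library, and the adjusted p of its difference between the genotypes was 0.375, or 0.0162 with all 12 libraries in the fit.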

Other observations

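Relatives and partners of the members were read as well, chosen after their values had been seen and tested with limma. Both other tested MEF2 genes fell with *Mef2c* after LPS, with log2 changes of -2.83 in KO and -2.77 in WT macrophages for *Mef2d* and -1.30 and -1.24 for *Mef2a*. *Runx2*, a paralog of *Runx1*, fell as well (-2.83 in KO and -2.47 in WT macrophages), while *Cbfb*, which encodes the shared partner of RUNX proteins, had log2 changes of 0.41 and 0.64, under the 2-fold threshold. The MITF family genes *Tfec* and *Mitf* rose by 2.41 and 1.17 in KO and by 2.65 and 1.15 in WT macrophages, *Mitf* not past 2-fold under upper quartile scaling (0.85 in KO and 0.81 in WT macrophages) or quantile normalization (0.49 in each). Among regulators of C/EBP proteins, *Trib1*, a Tribbles pseudokinase that leads C/EBPα to degradation, fell (-2.23 in KO and -2.38 in WT macrophages), and so did *Ddit3*, which encodes CHOP, a C/EBP relative that forms dimers with the family (-1.21 and -1.54, but -0.996 and so under 2-fold in KO macrophages with quantile normalization). Others of that list went the other way, with 5 higher and 6 lower in each genotype. *Cop1* averaged 2565 normalized counts in LPS-treated KO, against 1007 in untreated KO macrophages. In WT macrophages it averaged 2442 after LPS, against 1029 in untreated cells. *Atf4*, a dimer partner of C/EBPγ, had log2 changes of 0.12 in KO and -0.10 in WT macrophages (adjusted p = 0.188 and 0.284).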
